A study of Mus musculus with 6 samples.

Results

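Oat, Nkx1-2 and Lhpp are neighbours on mouse chromosome 7, and they were selected on the difference in their levels between CHIR99021 and XAV939 on the arrays described here. They are 3 of 19937 genes measured. Each was read from 1 probe set that names that gene alone, 10568568 for Oat, 10568581 for Nkx1-2 and 10558265 for Lhpp, and no other listed probe set names any of them. Because the choice used this same contrast, their values are given as a description, with no test.

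Each of 6 Affymetrix arrays measured total RNA of V6.5 mouse embryonic stem cells, which were cultured in serum and LIF, the cytokine that holds such cells in an undifferentiated state. All 6 arrays are of 1 line in which the endogenous Ctnnb1 gene, which encodes β-catenin, carries a biotin-acceptor and 3xFLAG tag in cells that also express the biotin ligase BirA (Ctnnb1-BioFLneo;BirA ESC). On 3 arrays the cells had received CHIR99021 at 3 µM for 24 h, which blocks the kinase GSK3 and thereby stabilises β-catenin. The other 3 arrays were of cells given XAV939 for 24 h, a tankyrase inhibitor that stabilises Axin and so lowers β-catenin, at 3 µM by the sample labels and 1 µM by the treatment protocol. The cells were kept on feeder cells isolated from DR4 mice. No untreated arrays were analysed here, so a difference cannot be placed on either compound, and the labels do not say whether replicates were separate cultures, so p-values measure only the spread between these arrays. Fewer expressing cells and less RNA per cell cannot be told apart in such samples.

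Oat encodes ornithine aminotransferase, a mitochondrial enzyme that interconverts ornithine and the semialdehyde of glutamate and so joins the urea cycle and polyamine precursors to proline and glutamate. Nkx1-2, also called Sax1, encodes an NK-type homeobox transcription factor known as a marker of the caudal epiblast beside the primitive streak and of the neuromesodermal progenitors found there. Lhpp encodes a phosphatase of the haloacid dehalogenase (HAD) family that acts on phosphohistidine, phospholysine and inorganic pyrophosphate. The 3 proteins belong to different families.

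In the RefSeq gene table of assembly GRCm38.p6, which was used here for gene order, the genes follow each other as Oat, Nkx1-2 and Lhpp. The 1 other entry between them is Gm46021, a pseudogene between Nkx1-2 and Lhpp with no named probe set. RefSeq promoter windows, 250 bases before to 50 bases after the start, were matched by symbol for 2 of the 3 genes. These windows are shown because the genes were higher with CHIR99021, the difference on which the genes were chosen. Both lie on the minus strand of GRCm38.p6, at chr7:132576349-132576648 for Oat and chr7:132599588-132599887 for Nkx1-2. They are written 5′ to 3′, and capitals mark the letters CCAAT (the CCAAT box) and GGGCGG (the GC box) on either strand.
Oat: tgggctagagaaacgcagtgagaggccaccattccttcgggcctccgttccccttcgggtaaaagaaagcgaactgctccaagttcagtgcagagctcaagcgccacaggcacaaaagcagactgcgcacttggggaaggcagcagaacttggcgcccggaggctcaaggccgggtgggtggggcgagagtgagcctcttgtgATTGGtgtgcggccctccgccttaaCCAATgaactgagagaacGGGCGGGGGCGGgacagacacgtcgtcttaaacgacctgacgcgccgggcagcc
Nkx1-2: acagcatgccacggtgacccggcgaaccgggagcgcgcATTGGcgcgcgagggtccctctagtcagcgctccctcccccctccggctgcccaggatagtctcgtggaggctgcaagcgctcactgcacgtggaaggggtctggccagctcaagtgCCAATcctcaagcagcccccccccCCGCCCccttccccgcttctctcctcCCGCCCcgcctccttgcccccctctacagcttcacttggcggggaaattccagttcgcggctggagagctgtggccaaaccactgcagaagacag
The Oat window had 22 CG dinucleotides and 61.7% G and C bases. The Nkx1-2 window had 21 CG dinucleotides and 67.3%, where the medians over all 32851 windows were 7 and 52.7%. CCAAT was found on both strands in each window, and at least 1 strand held it in 37.4% of all windows. GGGCGG or its reverse complement occurred at 2 places in each window, overlapping no CCAAT, and was present in 35.7% of all windows. The letters CTTTGA (taken here as the core of the TCF/LEF motif, through which β-catenin acts) and TATAAA (the TATA box) were in neither window on either strand. They were in 16.003% and 13.6% of all windows. No other spelling of the TCF/LEF motif was searched.

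The level of Oat was 9.35, 9.30 and 9.003 (log2) on CHIR99021 replicates 1, 2 and 3, against 7.77, 8.06 and 7.98 on XAV939 replicates 1, 2 and 3. CHIR99021 replicate 3 was the lowest of its treatment and XAV939 replicate 1 the lowest of the other. Oat averaged 9.22 ± 0.19 with CHIR99021 and 7.93 ± 0.15 with XAV939 (SD, n = 3 each), a log2 difference of 1.28 or 2.43-fold. The treatments did not overlap, and the lowest CHIR99021 array lay 0.95 above the highest XAV939 array.

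The level of Nkx1-2 was 6.85, 6.88 and 7.02 (log2) on CHIR99021 replicates 1 to 3, against 6.43, 6.16 and 6.02 on XAV939 replicates 1 to 3. Here XAV939 replicate 1 was the highest of its treatment, and the XAV939 arrays spread over 0.42 where the CHIR99021 arrays spread over 0.16. Nkx1-2 averaged 6.92 ± 0.09 with CHIR99021 and 6.21 ± 0.21 with XAV939 (SD, n = 3 each), a log2 difference of 0.71 or 1.64-fold. The treatments did not overlap, with a gap of 0.42.

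The level of Lhpp was 8.89, 9.07 and 9.02 (log2) on CHIR99021 replicates 1 to 3, against 7.43, 7.59 and 7.69 on XAV939 replicates 1 to 3. It averaged 8.99 ± 0.09 with CHIR99021 and 7.57 ± 0.13 with XAV939 (SD, n = 3 each), a log2 difference of 1.42 or 2.68-fold. Lhpp thus had both the largest difference of the 3 and the widest gap between treatments, 1.20. By size of the signed difference Lhpp stood 17th, Oat 25th and Nkx1-2 132nd among all genes, counted from the highest. In mean level over the 6 arrays, Oat and Lhpp lay at the 84.3 and 80.8 percentiles of all genes and Nkx1-2 at the 57.3 percentile.

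All 3 members were higher with CHIR99021 without overlap, as were 14.1% of all genes, a count that follows from how the members were chosen. With any 1 array left out the difference was between 1.20 and 1.39 for Oat, between 0.62 and 0.83 for Nkx1-2 and between 1.35 and 1.48 for Lhpp. The lowest Nkx1-2 value was that without XAV939 replicate 3 and the highest that without XAV939 replicate 1.

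**Figure D1:**
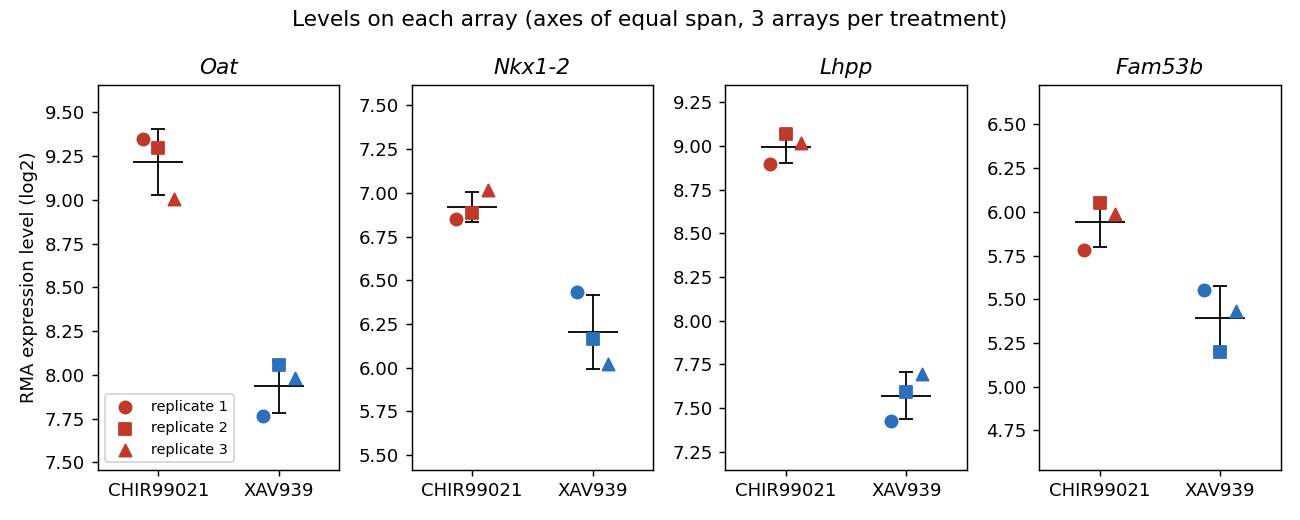
RMA expression level (log2) of Oat, Nkx1-2, Lhpp and the adjacent Fam53b on each array, with CHIR99021 left of XAV939; points are arrays, shaped by replicate number, horizontal bars are means and error bars the SD of 3 arrays, and all vertical axes span the same number of log2 units. In each of the 4 genes every CHIR99021 array lies above every XAV939 array, with the widest gap in Lhpp (1.20).

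Within a treatment the members did not all follow each other from array to array. Measured from its treatment mean, Oat was at 0.13, 0.08 and -0.21 on CHIR99021 replicates 1 to 3 and at -0.17, 0.12 and 0.05 on XAV939 replicates 1 to 3. Nkx1-2 was at -0.07, -0.03 and 0.10 on the CHIR99021 arrays and at 0.23, -0.04 and -0.19 on the XAV939 arrays. Oat and Nkx1-2 therefore lay on opposite sides of their treatment mean on 6 of 6 arrays, although deviations within a treatment sum to 0 and these are not 6 independent observations. Lhpp was at -0.10, 0.08 and 0.02 on the CHIR99021 arrays and at -0.14, 0.02 and 0.12 on the XAV939 arrays, on the same side as Oat on 4 arrays and on the same side as Nkx1-2 on 2.

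The arrays on which Oat dipped and Nkx1-2 was high are those with negative values on the second principal component of the 19937 genes. On that component, which held 17.5% of the variance, XAV939 replicate 1 was at -0.77 and CHIR99021 replicate 3 at -0.28. The other 4 lay between 0.15 and 0.40. By absolute size, XAV939 replicate 1 had the largest value. That of CHIR99021 replicate 3 was smaller than those of XAV939 replicate 2 (0.35) and XAV939 replicate 3 (0.40). The first component, with 60.5%, separated the treatments. The part of that array difference in the opposite deviations was not tested. Without both arrays the differences were 1.31 for Oat, 0.78 for Nkx1-2 and 1.34 for Lhpp, a comparison chosen after seeing the data. With 3 arrays per treatment no correlation between the members was computed, because the 6 arrays fall into separate clusters by treatment.

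**Figure D2:**
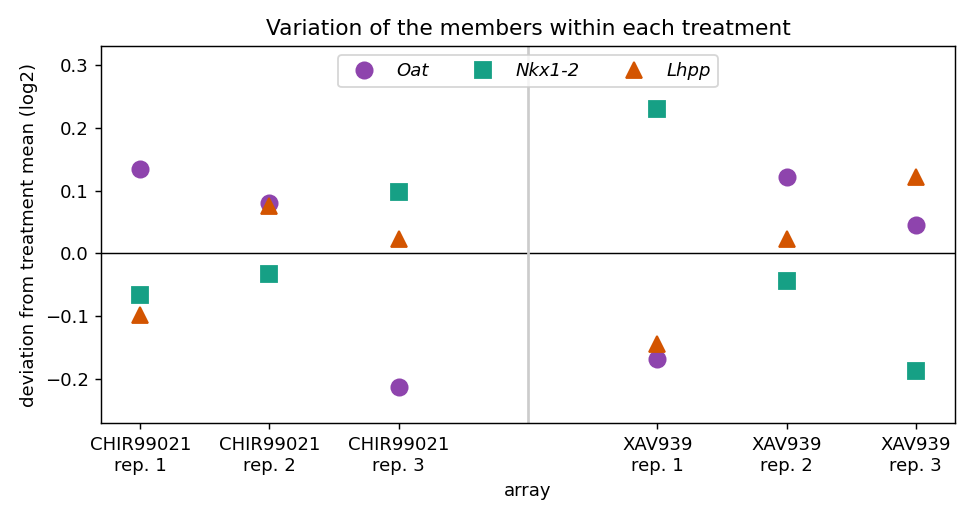
Deviation of Oat, Nkx1-2 and Lhpp from the mean of their treatment (log2) on each of the 6 arrays, CHIR99021 on the left and XAV939 on the right. Oat and Nkx1-2 lie on opposite sides of 0 on all 6 arrays, with the largest separation on XAV939 replicate 1 (-0.17 for Oat and 0.23 for Nkx1-2).

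Genes whose 6-array profile came nearest to each member were found by the root mean square (RMS) difference of log2 values centred on the gene's own mean. Nearest to Oat were Wls, which is needed for secretion of Wnt ligands (0.12), Prxl2a, a peroxiredoxin-like gene (0.12), and Tfcp2l1, a transcription factor of naive pluripotency (0.13). Lhpp came at 0.16 from Oat. Nearest to Lhpp were Tfcp2l1 (0.07), Dsc2, a desmosomal cadherin (0.09), and Emp1, a tetraspan membrane protein gene (0.10).

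Nearest to Nkx1-2 were Ccn4, a matricellular protein gene also called Wisp1 (0.05), Il6ra, the interleukin-6 receptor gene (0.05), and Sh2d4b, an SH2-domain gene (0.07). Nkx1-2 was 0.38 from Oat and 0.41 from Lhpp. Ccn4 repeated the array order of Nkx1-2, at 6.67, 6.70 and 6.82 on CHIR99021 replicates 1 to 3 and 6.15, 5.99 and 5.73 on XAV939 replicates 1 to 3. It was picked for closeness on these same arrays, so the shared order is a description. These distances describe 6 arrays of 2 treatments and include the difference between treatments.

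Genes beside the members were described from the 10 nearest measured genes on each side. Of these 20 neighbours, 3 rose with CHIR99021, 1 fell and 16 did not pass, where passing means p up to 0.05 in limma's moderated test after Benjamini-Hochberg adjustment over all genes. Over all genes 9.65% passed, 5.31% higher and 4.34% lower. The median difference of the 20 was 0.05, beside 0.0066 over all genes, and 14 of the 20 had a positive difference, as did 53.0% of all genes.

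Fam53b, the next gene after Lhpp, was at 5.78, 6.05 and 5.99 (log2) on CHIR99021 replicates 1 to 3 and at 5.55, 5.20 and 5.44 on XAV939 replicates 1 to 3. In zebrafish its product, also called Simplet, is known to regulate the nuclear localisation of β-catenin. Every CHIR99021 array lay above every XAV939 array, and Fam53b rose by 0.55 ± 0.10 (SE, 1.46-fold, adjusted p = 0.00422, limma). It was past the threshold in all 11 alternatives in which it was measured (adjusted p = 0.00202 to 0.0256), although its level was below the median of all probe sets (5.67 against 5.68). On the other side of the block, the next measured gene to Oat was Gm10584, a long non-coding RNA gene. Its CHIR99021 arrays averaged 6.48 ± 0.09 and its XAV939 arrays 6.48 ± 0.06 (SD, n = 3 each), a difference of 0.00065 ± 0.06 (SE).

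The remaining neighbours past the threshold had smaller differences and were not adjacent to the block. Cpxm2, a carboxypeptidase-like gene and the third measured gene from Oat, rose by 0.25 ± 0.06 (SE, adjusted p = 0.0188). Uros, which encodes the uroporphyrinogen III synthase of haem synthesis and is the tenth from Lhpp, rose by 0.27 ± 0.07 (SE, adjusted p = 0.0338). Ctbp2, a transcriptional co-repressor gene and the sixth from Lhpp, fell by 0.26 (adjusted p = 0.0235). These 3 calls came from limma and were lost in 4 of 11, 7 of 12 and 5 of 12 alternatives for Cpxm2, Uros and Ctbp2, and Fam53b was the 1 neighbour past the threshold when CHIR99021 replicate 1, CHIR99021 replicate 2, XAV939 replicate 2 or XAV939 replicate 3 was left out.

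**Figure D3:**
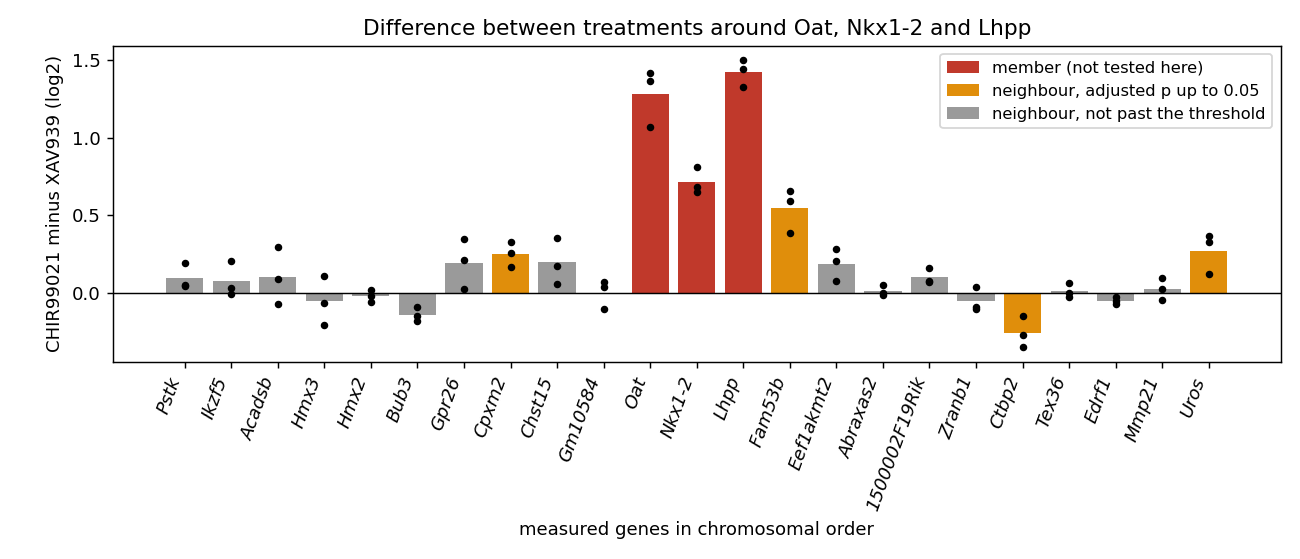
Log2 difference, CHIR99021 minus XAV939, of 23 measured genes in chromosomal order: the 3 members and the 10 nearest genes on each side. Bars are differences of treatment means, dots are each CHIR99021 array minus the XAV939 mean, and colours separate the members, which are not tested here, from neighbours past and not past an adjusted p of 0.05. The bars fall off from Lhpp (1.42) to Fam53b (0.55) on one side and from Oat (1.28) to Gm10584 (0.00065) on the other. Between Oat and Lhpp, the bar of Nkx1-2 is lower than both (0.71). The members were chosen on this difference.

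Elsewhere in the genome, 25 runs of at least 3 consecutive measured genes passed in the same direction, 16 higher and 9 lower, counting no run that holds Oat, Nkx1-2 or Lhpp. The run with the highest smallest difference was Pcsk1n, Eras and Hdac6, all lower, with a smallest absolute difference of 0.50. Of 19811 windows of 3 consecutive measured genes, 2 had all differences at or above 0.5, and both lay in the stretch from Oat to Fam53b. The members were picked for these differences, so the place of their windows is a description.

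Oat was set beside genes of ornithine, proline and polyamine metabolism, the setting in which it works. Of 29 listed, 22 had a value here and the others were not analysed here. Of the 22, 2 rose, 1 fell and 19 did not pass, where 9.65% of all genes passed, and the median difference was 0.01. Sat1, which acetylates spermidine and spermine, was at 8.73, 8.59 and 8.89 (log2) on CHIR99021 replicates 1 to 3 and at 8.11, 7.95 and 8.13 on XAV939 replicates 1 to 3, without overlap. It rose by 0.67 ± 0.08 (SE, 1.59-fold, limma adjusted p = 3.79e-04). Smox, the spermine oxidase gene, rose by 0.34 ± 0.07 (SE, limma adjusted p = 0.00919).

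Srm, the spermidine synthase gene, fell by 0.28 (limma adjusted p = 0.0259), a call lost in 6 of 12 alternatives. The call of Srm was lost without CHIR99021 replicate 1 or 2, without each single XAV939 array and with the replicate block (adjusted p = 0.0564). The enzymes next to Oat in proline metabolism are among those not past. Aldh18a1, which makes the same semialdehyde from glutamate, had 9.21 ± 0.04 with CHIR99021 and 9.20 ± 0.05 with XAV939 (SD, n = 3 each), and Prodh, the proline dehydrogenase gene, had 7.98 ± 0.01 with CHIR99021 and 7.99 ± 0.02 with XAV939. Odc1, which turns ornithine into putrescine, differed by -0.13 ± 0.06 (SE, limma adjusted p = 0.210).

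Nkx1-2 was set beside 2 groups. Of 23 measured homeobox genes of the NK and related families, 3 rose with CHIR99021, none fell and 20 did not pass, where 5.31% of all genes rose and 4.34% fell, and the median difference was -0.00059. Nkx6-2, a neural patterning gene, was at 7.07, 7.16 and 7.33 (log2) on CHIR99021 replicates 1 to 3 and at 6.56, 6.25 and 6.37 on XAV939 replicates 1 to 3. It rose by 0.79 ± 0.09 (SE, limma adjusted p = 2.34e-04). Msx1 and Msx2, known as targets of BMP signalling, rose by 0.81 ± 0.09 and 0.61 ± 0.09 (SE).

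XAV939 replicate 1 was the highest XAV939 array in 21 of the 23, as it was in Nkx1-2 and in 40.8% of all genes. Nkx1-1, the closest relative of Nkx1-2 in the list, differed by 0.19 ± 0.07 (SE) and did not pass (limma adjusted p = 0.167). Hmx2 and Hmx3, homeobox genes that also lie among the 10 measured genes on the Oat side, differed by -0.02 and -0.05.

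Of 24 genes of the caudal epiblast and its Wnt and FGF signals, 14 rose, 1 fell and 9 did not pass, where 5.31% of all genes rose and 4.34% fell, and the median difference was 0.33. Those with the smallest p were Axin2, a feedback inhibitor of the pathway (1.91 ± 0.09, SE), Cdx2, a posterior homeobox gene (1.63 ± 0.10), Lef1, which brings β-catenin to DNA (0.69 ± 0.06), Cyp26a1, which degrades retinoic acid (1.19 ± 0.12), and Sp5, a β-catenin target (1.35 ± 0.14). The difference of Nkx1-2, 0.71, lies between those of Lef1 and Cyp26a1. The 9 that did not pass, Dll1, Greb1, Sp8, Hoxb1, Wnt3a, Tbx6, Hes3, Fgf17 and Epha5, had differences between -0.21 and 0.22. Sall4, the member of that list that fell (by 0.20, limma adjusted p = 0.0427), is named after its value was seen and is also a stem cell gene. The list was written with results of these arrays known and is not independent evidence of its direction.

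Lhpp was set beside 14 genes for phosphohistidine enzymes, inorganic pyrophosphatases and phosphatases of its HAD family, and none passed in limma's test, where 9.65% of all genes did. At an unadjusted p under 0.05 there was 1, Ppa2, a mitochondrial pyrophosphatase gene, with -0.13 ± 0.06 (SE, limma adjusted p = 0.226). The next smallest p was that of Pudp, a HAD phosphatase gene, at 0.13 ± 0.06 (SE, limma adjusted p = 0.247). All 14 differences lay between -0.15 and 0.13, against 1.42 for Lhpp, and the median was 0.02.

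**Figure D4:**
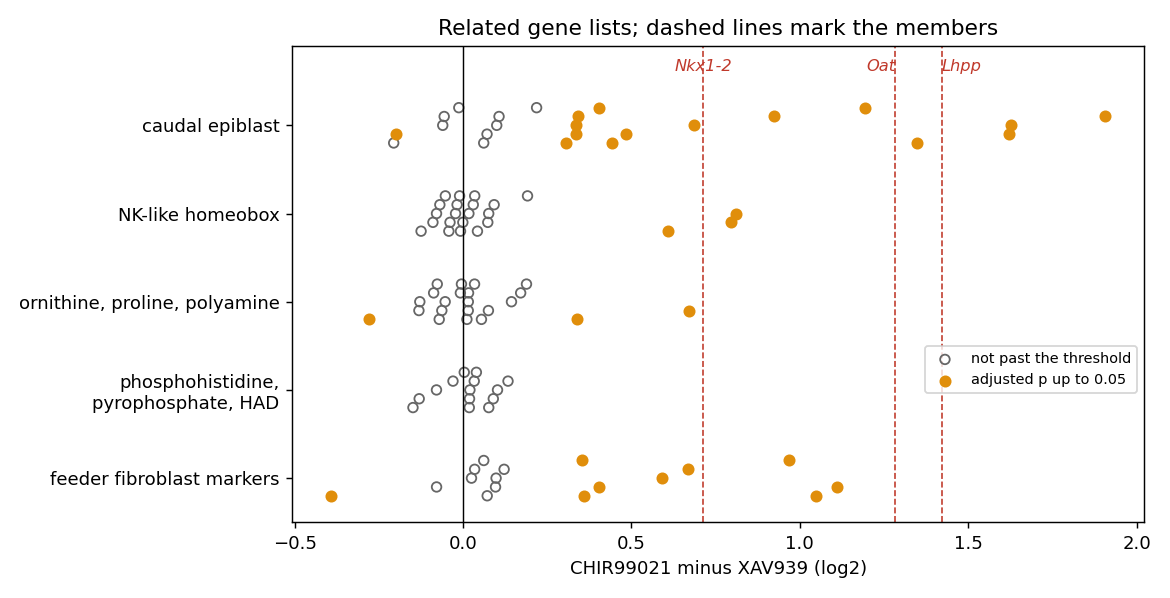
Log2 difference, CHIR99021 minus XAV939, of each measured gene in 5 lists, 1 row per list; filled points passed an adjusted p of 0.05 in limma over all genes, open points did not, and vertical jitter carries no meaning. Dashed lines mark Nkx1-2 (0.71), Oat (1.28) and Lhpp (1.42); the 14 genes of phosphohistidine, pyrophosphate and HAD enzymes all lie left of them, between -0.15 and 0.13.

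Markers of feeder fibroblasts were set beside these results, and not all of them moved between the treatments. Which cells gave their signal cannot be told from these arrays. Of 17 measured markers of feeder fibroblasts, 8 rose, 1 fell and 8 did not pass, where 5.31% of all genes rose and 4.34% fell. Their summed signal, taken back to the linear scale, was 7821 to 8485 on the CHIR99021 arrays and 4543 to 4732 on the XAV939 arrays. Such a sum is weighted towards the genes of highest level, here Vim, Fn1, Tagln and Acta2 (mean levels 10.86, 10.62, 9.89 and 9.47, log2). The largest differences were those of Vim (1.11), Col1a1 (1.05) and Fn1 (0.97), with Tagln (0.67) and Pdgfrb (0.59) also among the 5 smallest p, and Mmp2, named after its value was seen, fell by 0.39. The 8 that did not pass, Prrx1, Pdgfra, Col3a1, S100a4, Lum, Thy1, Postn and Dcn, had differences between -0.08 and 0.12. Of the 17, 6 had a mean level below the median of all probe sets, among them Lum, Dcn and Postn at 4.05, 4.42 and 4.27 (log2). The part of feeder cells in the differences of Oat, Nkx1-2, Lhpp and Fam53b was not tested.

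The labelled cell type was checked with 10 stem cell genes, all of which had levels above the median of all probe sets. Of the 10, 3 rose (Esrrb by 0.60, Nanog by 0.49 and Zfp42 by 0.25) and 4 fell (Utf1 by 0.67, Tdgf1 by 0.63, L1td1 by 0.36 and Sall4 by 0.20), all named after their values were seen, where 9.65% of all genes passed. Their summed linear signal was 21792 to 22202 on the CHIR99021 arrays and 24194 to 24880 on the XAV939 arrays. Pou5f1, which encodes OCT4, averaged 11.33 ± 0.10 on CHIR99021 arrays and 11.51 ± 0.06 on XAV939 arrays (SD, n = 3 each), and Sox2 averaged 10.98 ± 0.03 on CHIR99021 arrays and 10.98 ± 0.05 on XAV939 arrays. The median level of the arrays was between 5.67 and 5.71, and Pearson's r over all genes, which are not independent replicates, was at least 0.997 for pairs of arrays of 1 treatment and at most 0.995 for pairs that differed in treatment.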

How the data were processed

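RNA of 6 samples was hybridised to Affymetrix arrays after labelling with whole-transcript kits, per the labels' protocols. The authors deposited 1 log2 value per probe set and array, computed with RMA, per the submitters' processing notes. RMA corrects background, normalises arrays by quantiles and summarises probes, which compresses differences of dim genes, so levels of different genes are not compared as amounts. For its version and for the genome build, nothing is given in the sources used here. Without scanner files, neither detection nor scan batches were examined. For arrays, their number limits the precision.

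Of 34760 probe sets, 21640 named 1 gene in the platform annotation, 1321 named several and were not used, and 11799 have no name here. The probe set with the highest mean represented each of 19937 genes, and 19855 had a position in the RefSeq table. CHIR99021 minus XAV939 was fitted with limma 3.58.1 (lmFit, eBayes) in R 4.3.3, with Benjamini-Hochberg adjustment over all genes and a threshold of 0.05, and the procedure was tested on simulated data. Arrays were grouped by title. The members, gene lists and tests were chosen with earlier results of these data known. Named were the members, neighbours past the threshold and the nearest on each side, up to 5 genes of each list by p (2 where none passed) and the 3 nearest profiles per member, leaving out predicted genes. Other named genes are background to a list, chosen for their role or after their values were seen. Alternatives were median centring, the mean of probe sets, a level filter, trend and robust moderation, the replicate number as a block and leaving out arrays. Deviations of same-numbered arrays correlated at -0.10, 0.06 and -0.14 across genes, so the numbers were not taken as pairs.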

Additional observations from a re-analysis of the deposited data

How the results depend on the processing

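The differences of Oat, Nkx1-2 and Lhpp moved by less than 1 SD, pooled over the treatments (0.17, 0.16 and 0.11), in every alternative run for them. Their direction was kept throughout. Most of these settings could not give another outcome. With 1 probe set per member, averaging probe sets returned the same differences, as did the replicate block. Leaving out 1 of 3 arrays cannot shift a difference by 1 pooled SD. Because the treatments did not overlap, leaving out arrays cannot turn the direction. The 20 neighbours held 4 genes past the threshold in the main setting, 2 when genes in the lower 50 percent by level were dropped (13 of the 20 were left, and Fam53b was not), and 1 to 4 with 1 array left out. With the replicate number as a block, a pairing that the array deviations did not bear out, 2 neighbours passed, and runs of adjacent genes numbered 17. Counted with the members, runs numbered 26 in the main setting and 12 (without CHIR99021 replicate 1) to 34 (without XAV939 replicate 1) with 1 array left out, and genes past the threshold over all genes numbered 1924, and 1254 (without CHIR99021 replicate 2) to 2247 (without XAV939 replicate 1). Gm10584, near 0 throughout, turned to -0.010 with median centring and was between -0.035 and 0.053 with 1 array left out. The counts for caudal, homeobox, ornithine, phosphohistidine and feeder genes stayed within 1.5 times in all alternatives. Causes of these changes were not tested. Leaving out CHIR99021 replicate 3 and XAV939 replicate 1 together was added after seeing the data. The number of arrays, 3 per treatment, limits the precision, and signal over background was not analysed here.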
